A study of Homo sapiens with 9 samples.

Results

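The TGF-beta genes described here are 10 genes taken by name, by their place in the pathway: the ligands TGFB1, TGFB2 and TGFB3, the receptors TGFBR1, TGFBR2 and TGFBR3, and the signal carriers SMAD2, SMAD3, SMAD4 and SMAD7. All 10 were found among the 62666 genes of the deposited tables, and all 10 passed the filter on low counts that kept 17910 genes for testing. RNA sequencing of polyadenylated RNA was available for 3 human breast epithelial lines of 1 lineage, with 3 libraries each and 9 in all. MCF10A is a non-tumorigenic line. MCF10AT1, made from it by adding activated HRAS, serves as a model of premalignant growth, and MCF10Ca1a, from the same lineage, forms carcinomas. MCF10A and MCF10Ca1a were grown with 5% horse serum and MCF10AT1 with 2.5%, so serum and line cannot be told apart in any comparison that includes MCF10AT1. All lines received insulin, hydrocortisone, cholera toxin and epidermal growth factor. Each stage was represented by 1 line, and the labels do not say whether replicates came from separate cultures, so p-values here measure only the spread between these libraries. In bulk RNA, fewer cells of a type and less RNA per cell cannot be told apart.

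TGF-beta ligands are secreted in a latent form, held in the matrix by latent TGF-beta binding proteins, and released by integrins and proteases. The active ligand binds the type II receptor, TGFBR2, which phosphorylates the type I receptor, TGFBR1, while the co-receptor TGFBR3 (betaglycan) presents the ligand, TGFB2 above all. TGFBR1 phosphorylates SMAD2 and SMAD3, which join SMAD4 and enter the nucleus, and SMAD7 is an inhibitor that TGF-beta itself induces. In mammary epithelium the pathway restrains growth in normal cells and is known for its part in invasion later in tumour progression.

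Depth ranged from 32930503 to 69508842 counts per library and was lowest in MCF10Ca1a. HRAS, the gene introduced into MCF10AT1, was higher in that line (97.6 CPM) than in MCF10A (41.0 CPM, log2 change 1.25) and higher again in MCF10Ca1a (145 CPM, log2 change 1.83 against MCF10A), but the counts do not tell the activated allele from the resident one. The labelled epithelial type was borne out by its markers in part: all 5 basal markers had at least 10 counts in every library, and 5 of 6 luminal markers did in MCF10A and 6 of 6 in the other lines. The summed level of the basal list was 4847 to 6058 CPM in MCF10A, 6682 to 7289 CPM in MCF10AT1 and 2887 to 3087 CPM in MCF10Ca1a, and that of the luminal list 647 to 789, 1918 to 2106 and 2659 to 2814 CPM. The basal markers did not move together: 2 were called higher and 3 lower in MCF10Ca1a against MCF10A. In the same order of lines, KRT5 (mean 2548, 3268 and 686 CPM), KRT6A (1724, 2674 and 372) and KRT14 (316, 65.7 and 6.26) ended lower. ITGB4 (694, 974 and 1851), most of the MCF10Ca1a sum, and TP63 (71.1, 49.0 and 78.3) ended higher. These epithelial shifts ran along with the line differences below, and their part in them was not tested. Fibroblast markers (7 genes) summed to 13.2 to 14.2, 33.8 to 34.96 and 5.34 to 5.95 CPM in the same order of lines. DCN carried most of that sum in MCF10AT1 (1891 to 2072 counts, against 251 to 332 in MCF10A and 1 to 9 in MCF10Ca1a), and COL1A1 most of it in MCF10A (536 to 642 counts) and MCF10Ca1a (169 to 195 counts), while COL1A2 had at most 1 count in any library. Leukocyte markers (5 genes) summed to 8.70 to 9.51, 4.38 to 4.68 and 0.252 to 0.48 CPM. CD14 carried nearly all of it, with 600 to 611 counts in MCF10A, 269 to 304 in MCF10AT1 and 4 to 12 in MCF10Ca1a, while CD3E was at 0 throughout. The part of these markers in the results was not tested either. Endothelial markers (4 genes) summed to 3.48 to 3.90, 3.58 to 4.65 and 42.1 to 49.5 CPM, the last from PECAM1 (log2 change 3.86 in MCF10Ca1a against MCF10A). KDR went the other way, with 30 to 42 counts in MCF10A, 23 to 32 in MCF10AT1 and 0 to 1 in MCF10Ca1a, while VWF had at most 3 counts in any library and CDH5 at most 1.

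The ligand genes changed places between the lines: TGFB1 fell and TGFB2 rose at both steps, so that TGFB1 was the main ligand transcript in MCF10A and TGFB2 in MCF10Ca1a. TGFBR3 fell to 1 read in 3 libraries of MCF10Ca1a, whereas TGFBR1 and TGFBR2 moved by less than 1.5-fold. SMAD3 rose in MCF10Ca1a, and SMAD7 was lower in both derived lines than in MCF10A. In CPM, SMAD2 and SMAD4 stayed within 1.2-fold of MCF10A, but in TPM the log2 ratios of their means in MCF10Ca1a to those in MCF10A were 0.35 and 0.31. By the quasi-likelihood test of edgeR, adjusted over the whole table by Benjamini-Hochberg, 7 of the 10 genes were called in MCF10AT1 against MCF10A (3 higher, 4 lower), where 61.6% of all genes were called (29.8% higher and 31.8% lower). In MCF10Ca1a against MCF10A all 10 were called (4 higher, 6 lower), against 80.9% of all genes (39.0% higher and 41.9% lower). In MCF10Ca1a against MCF10AT1, 9 were called (4 higher, 5 lower), against 78.4% of all genes (38.0% higher and 40.3% lower). The counts of members are to be read against this large background. The median size of their log2 changes (0.35, 0.80 and 0.48) was under that of all genes tested (0.38, 0.84 and 0.76). The libraries of the lines compared did not overlap in CPM for 7, 10 and 9 of the genes, against 65.4%, 81.5% and 81.9% of all genes tested. The comparisons share libraries and are not independent of each other.

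**Figure D1:**
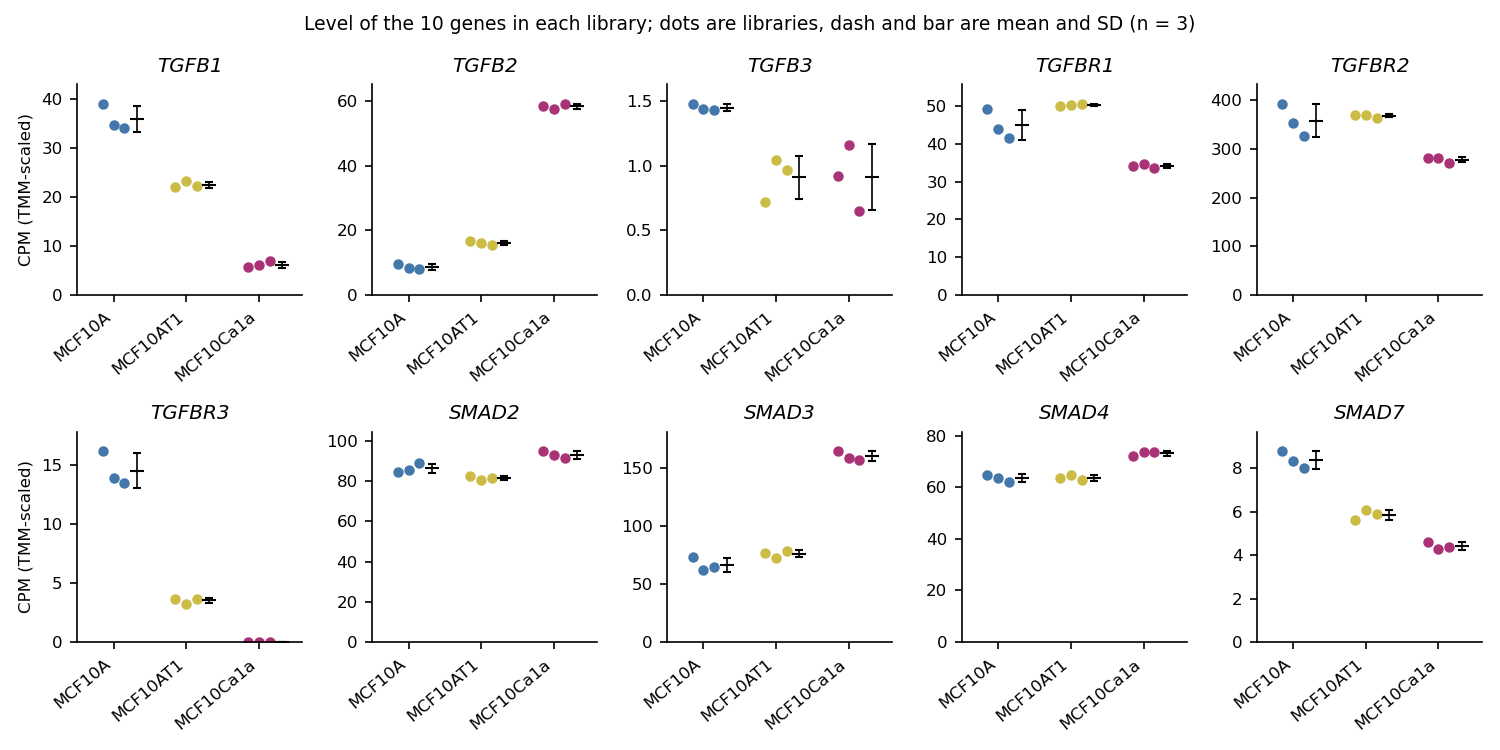
CPM (counts scaled to a common library total with TMM factors) of each of the 10 genes in the 9 libraries, 1 panel per gene with its own axis from 0. Dots are libraries, the dash and bar are the mean and SD of 3 libraries. TGFB1 steps down and TGFB2 steps up from MCF10A to MCF10Ca1a, TGFBR3 ends at 0 or nearly 0, and SMAD3 stands apart in MCF10Ca1a.

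Among the ligands, TGFB1 (ENSG00000105329.11, chr19:41301587-41353911, minus strand) encodes the most widely expressed isoform. Its level was 39.0, 34.7 and 34.0 CPM in the 3 libraries of MCF10A, 21.9, 23.2 and 22.2 CPM in MCF10AT1, and 5.62, 6.004 and 6.80 CPM in MCF10Ca1a. The 3 lines formed 3 separate bands with no overlap. TGFB1 was lower in MCF10AT1 than in MCF10A (log2 change -0.68, SE 0.0656, edgeR adjusted p 8.54e-07) and 5.85-fold lower in MCF10Ca1a than in MCF10A (log2 change -2.55, SE 0.0792, edgeR adjusted p 1.83e-12). The step from MCF10AT1 to MCF10Ca1a was 3.65-fold (log2 change -1.87, SE 0.0803, edgeR adjusted p 6.78e-11).

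TGFB2 (ENSG00000092969.12, chr1:218346235-218444619, plus strand) encodes the isoform that depends most on TGFBR3 for receptor binding. It was measured at 9.50, 8.13 and 7.94 CPM in MCF10A, at 16.6, 16.0 and 15.4 CPM in MCF10AT1 and at 58.6, 57.6 and 59.3 CPM in MCF10Ca1a. The order of the lines was the reverse of that for TGFB1, again without overlap. The rise was 1.88-fold in MCF10AT1 against MCF10A (log2 change 0.91, SE 0.0675, edgeR adjusted p 5.53e-08) and 6.87-fold in MCF10Ca1a against MCF10A (log2 change 2.78, SE 0.0671, edgeR adjusted p 1.76e-13). From MCF10AT1 to MCF10Ca1a it was 3.65-fold (log2 change 1.87, SE 0.0634, edgeR adjusted p 6.67e-12).

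The 250 bases before the RefSeq starts of TGFB1 and TGFB2 (RefSeq, GRCh38.p14) are shown because these ligands moved in opposite directions and their windows differ in make-up. They read 5′ to 3′ on the gene's own strand. Capitals mark GGGCGG (GC box) in TGFB1, and CAGAC (the SMAD-binding box), CACGTG (an E-box) and TATAAA in TGFB2, each searched on both strands.
TGFB1, chr19:41353923-41354172, minus strand: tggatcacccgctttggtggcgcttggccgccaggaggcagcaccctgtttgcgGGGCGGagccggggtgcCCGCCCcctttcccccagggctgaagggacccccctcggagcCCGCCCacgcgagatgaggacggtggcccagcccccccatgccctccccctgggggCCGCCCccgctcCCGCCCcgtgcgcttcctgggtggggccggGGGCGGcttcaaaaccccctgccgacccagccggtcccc
TGFB2, chr1:218345086-218345335, plus strand: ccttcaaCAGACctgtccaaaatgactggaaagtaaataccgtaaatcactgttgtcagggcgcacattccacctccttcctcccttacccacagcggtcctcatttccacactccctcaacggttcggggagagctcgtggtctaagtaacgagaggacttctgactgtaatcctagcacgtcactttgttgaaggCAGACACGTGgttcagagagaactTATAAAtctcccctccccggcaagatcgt
The TGFB1 window held 6 matches to GGGCGG, which 42.6% of 35116 RefSeq windows of this length hold at least once, and none to the other letters. The TGFB2 window held no GGGCGG, but 2 matches to CAGAC (38.0% of windows), 1 to CACGTG (6.34%), which overlaps the second CAGAC by 1 base, and 1 to TATAAA (10.7%), 29 bases before the start. The GC content of the windows was 76.8% and 50.4%. The RefSeq start of TGFB2 lies 899 bases from the start of the nearest transcript in GENCODE 29, so which start these cells used was not tested. A match describes letters in the window, not binding.

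TGFB3 (ENSG00000119699.8, chr14:75958099-75982991, minus strand) encodes the third isoform and was scarce in every line. It had 93 to 100 counts in the libraries of MCF10A, 48 to 69 in MCF10AT1 and 23 to 39 in MCF10Ca1a. These were 1.48, 1.44 and 1.43 CPM, then 0.720, 1.04 and 0.967 CPM, then 0.922, 1.16 and 0.649 CPM. Both derived lines lay below MCF10A and overlapped each other. TGFB3 was lower than in MCF10A by similar amounts in MCF10AT1 (log2 change -0.67, SE 0.195, edgeR adjusted p 0.0086) and in MCF10Ca1a (log2 change -0.67, SE 0.212, edgeR adjusted p 0.00963). The second call was lost without MCF10Ca1a replicate 3 (log2 change -0.48, edgeR adjusted p 0.052) and with limma on log2(TPM + 0.1) (-0.54). The first was lost on the authors' scaled counts (-0.76). On log2(TPM + 1), which understates changes of low genes, the values were -0.25 and -0.20, both called. MCF10Ca1a and MCF10AT1 did not differ detectably (log2 change 0.00, SE 0.221, edgeR adjusted p 0.998).

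On the scale of TPM, which corrects for transcript length and allows genes to be set side by side, TGFB1 made up 81.6 ± 1.40% (SD, n = 3) of the summed ligand level in MCF10A, 62.9 ± 2.01% in MCF10AT1 and 12.2 ± 0.568% in MCF10Ca1a. TGFB2 made up 16.1 ± 1.33%, 35.5 ± 2.30% and 86.7 ± 0.647%. TGFB3 took 2.27%, 1.63% and 1.06% on average. The libraries of the lines did not overlap in the shares of TGFB1 and TGFB2. The summed ligand level was 23.7 ± 3.32 TPM in MCF10A, 17.8 ± 0.661 TPM in MCF10AT1 and 32.1 ± 1.72 TPM in MCF10Ca1a, so the swap went with a total that was lowest in the middle line. This total is not one of coding transcripts alone. TGFB2-203, annotated as a processed transcript and not as coding, held 40.5%, 30.2% and 36.6% of TGFB2 TPM on average, at 1.61, 1.95 and 10.3 TPM. On log2(TPM + 1), the same genes moved relative to the edgeR fit by a median of 0.13 in MCF10Ca1a against MCF10A and 0.26 against MCF10AT1.

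**Figure D2:**
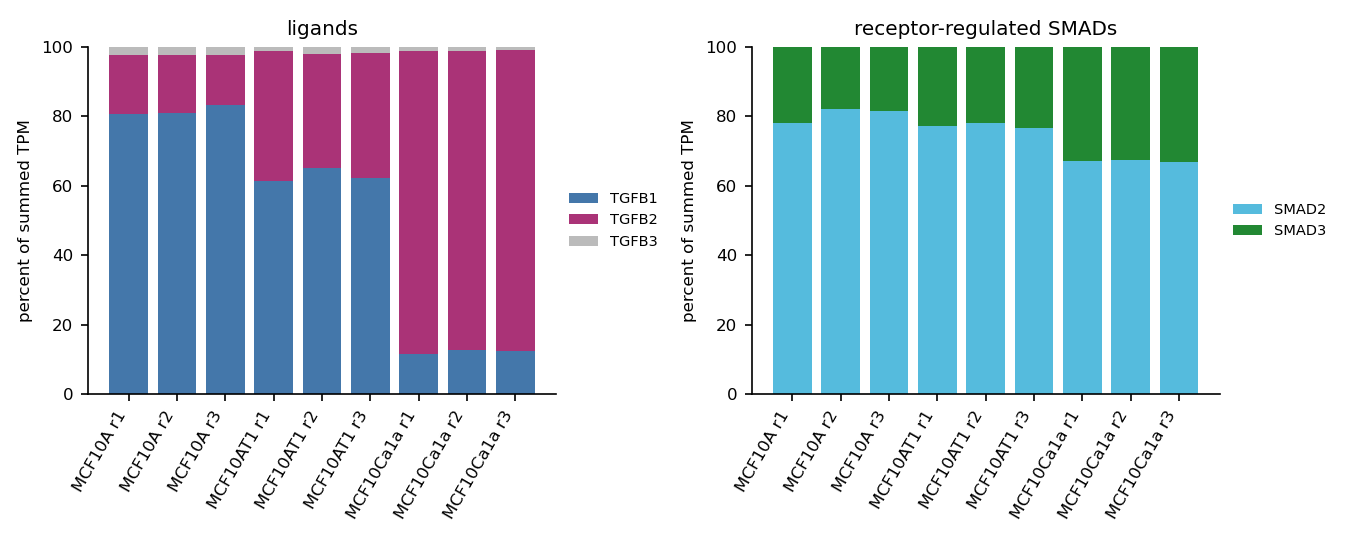
Share of the summed TPM (percent, 0 to 100) held by each ligand gene (left) and by SMAD2 and SMAD3 (right) in the 9 libraries; r1 to r3 are replicates. TGFB2 takes 14.6% to 17.1% of the ligand level in MCF10A and 86.0% to 87.3% in MCF10Ca1a, and SMAD3 takes 32.6% to 33.2% of SMAD2 and SMAD3 together in MCF10Ca1a.

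Among the receptors, TGFBR3 (ENSG00000069702.11, chr1:91680343-91906335, minus strand) encodes betaglycan, a co-receptor without kinase activity. Its counts were 1038, 897 and 939 for MCF10A, then 245, 215 and 226 for MCF10AT1, then 0, 0 and 1 for MCF10Ca1a. In CPM these were 16.2, 13.9 and 13.5 CPM, then 3.67, 3.24 and 3.64 CPM, then 0, 0 and 0.0282 CPM. The lines were far apart, and MCF10Ca1a was near the floor. A count of 0, as in its replicates 1 and 2, leaves up to 3 counts possible, and the count of 1 in replicate 3 leaves more. TGFBR3 was 4.12-fold lower in MCF10AT1 than in MCF10A (log2 change -2.04, SE 0.105, edgeR adjusted p 1.36e-09), a fall that only 3.38% of genes tested matched or passed. Against the single read in MCF10Ca1a, the ratio was 1517 for MCF10A (exact 95% interval 272 to 59953, counting error only) and 369 for MCF10AT1 (65.993 to 14592). Both differences passed the test (edgeR adjusted p 4.99e-13 and 6.78e-11).

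TGFBR2 (ENSG00000163513.19, chr3:30606502-30694142, plus strand), the type II kinase that binds ligand first, was the most abundant of the 10 genes in every line, with 127 ± 18.7 TPM (SD, n = 3) in MCF10A, 118 ± 3.46 TPM in MCF10AT1 and 106 ± 3.14 TPM in MCF10Ca1a. In CPM it stood at 394, 354 and 326 in MCF10A, at 371, 371 and 365 in MCF10AT1 and at 282, 282 and 272 in MCF10Ca1a. MCF10AT1 lay within the range of MCF10A, and MCF10Ca1a lay below both. It was lower in MCF10Ca1a by 1.29-fold against MCF10A (log2 change -0.36, SE 0.0649, edgeR adjusted p 0.000146) and by 1.32-fold against MCF10AT1 (log2 change -0.41, SE 0.0649, edgeR adjusted p 5.63e-05). For MCF10AT1 against MCF10A the log2 change was 0.04 (SE 0.0645, edgeR adjusted p 0.585), and a call only without MCF10A replicate 1 (log2 change 0.12, edgeR adjusted p 0.0351).

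TGFBR1 (ENSG00000106799.14, chr9:99104038-99154192, plus strand) encodes the type I kinase that phosphorylates SMAD2 and SMAD3. Its level was 49.4, 44.1 and 41.6 CPM in MCF10A, 50.1, 50.4 and 50.8 CPM in MCF10AT1 and 34.2, 34.7 and 33.5 CPM in MCF10Ca1a. The MCF10AT1 libraries lay just above MCF10A, and those of MCF10Ca1a below both. TGFBR1 was lower in MCF10Ca1a than in MCF10A (log2 change -0.40, SE 0.0612, edgeR adjusted p 3.54e-05) and than in MCF10AT1 (log2 change -0.56, SE 0.0611, edgeR adjusted p 1.19e-06). The small rise in MCF10AT1 against MCF10A (log2 change 0.16, SE 0.0588, edgeR adjusted p 0.0272) was not called in 5 of 9 fits that each left out 1 library, namely MCF10A replicate 2 or 3 or any MCF10AT1 replicate. These 9 fits gave 0.11 to 0.24. It was also not called on the length-scaled and scaled counts (both 0.14) or with limma on TPM, where it was 0.01. The 694 genes tested on chromosome 9, where TGFBR1 lies, had median log2 changes of 0.48 in MCF10AT1 and 0.33 in MCF10Ca1a, each against MCF10A. Between MCF10Ca1a and MCF10AT1 that median was -0.15. Any part of this in the changes of TGFBR1 was not tested.

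The calls of TGFBR1 and TGFBR2 in MCF10Ca1a depended in part on the setting. Limma on log2(TPM + 1) differs from the count fit in unit, test and filter and uses no TMM scaling. With it the change of TGFBR1 was -0.10 against MCF10A and -0.11 against MCF10AT1, and neither was called. That of TGFBR2 was -0.24 against MCF10A, called, and -0.16 against MCF10AT1, not called. This setting moved the same genes upward relative to the count fit by a median of 0.13 and 0.26 in these comparisons. Relative to that shift TGFBR1 was at -0.23 and -0.37 and TGFBR2 at -0.38 and -0.42. On the authors' scaled counts, tested by edgeR with TMM, the shift was -0.03 and -0.01. Relative to it TGFBR1 was at -0.23 and -0.38 and TGFBR2 at -0.38 and -0.43. Of 10 settings other than leaving out a library, TGFBR2 was called against MCF10A in 9 and against MCF10AT1 in 7, and TGFBR1 in 7 of each. TGFBR2 held 86.3 ± 0.339%, 87.4 ± 0.193% and 87.6 ± 1.23% (SD, n = 3) of the summed receptor TPM in MCF10A, MCF10AT1 and MCF10Ca1a, and TGFBR1 11.1%, 12.0% and 12.4%. TGFBR3 held 2.64%, 0.618% and 0.00379%.

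**Figure D3:**
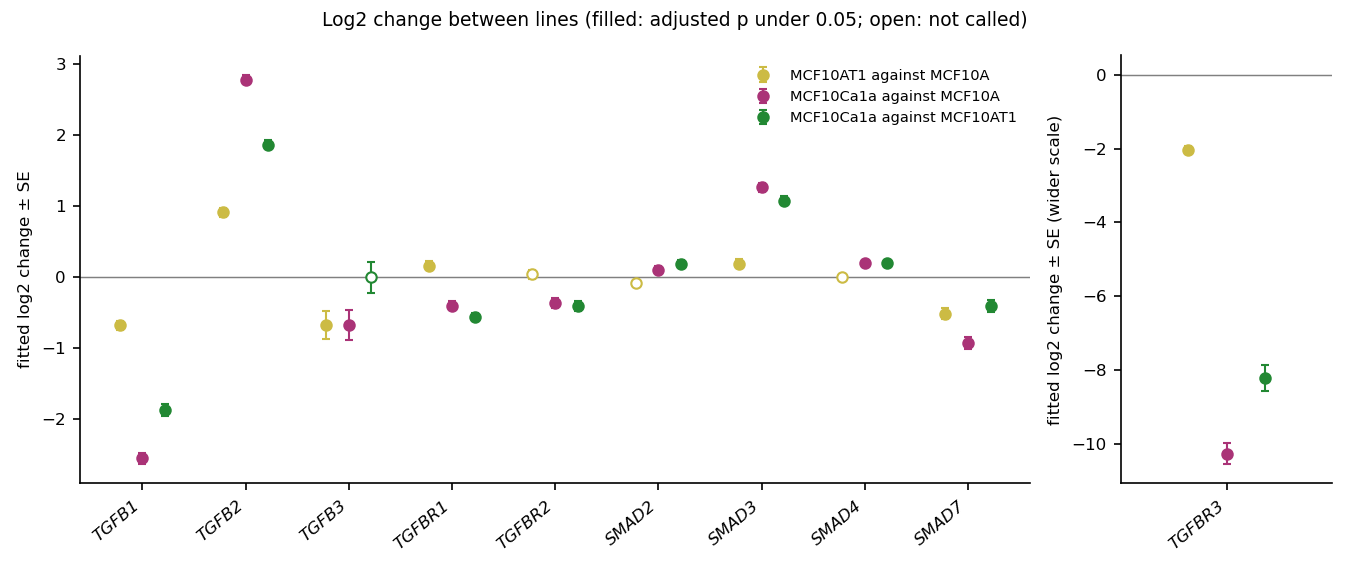
Fitted log2 change with its SE for the 10 genes in the 3 comparisons, by edgeR; TGFBR3 has its own, wider axis. Points are filled where the adjusted p was under 0.05. TGFB1 and TGFB2 mirror each other, at -2.55 and 2.78 in MCF10Ca1a against MCF10A, and the fitted values of TGFBR3 in MCF10Ca1a rest on 1 read.

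SMAD3 (ENSG00000166949.17, chr15:67063763-67195195, plus strand), the receptor-regulated SMAD that binds DNA directly in its main form, rose the most among the SMADs. Its level was 73.4, 62.2 and 64.4 CPM in MCF10A, 76.5, 72.6 and 78.6 CPM in MCF10AT1 and 165, 159 and 157 CPM in MCF10Ca1a. MCF10A and MCF10AT1 overlapped, and all MCF10Ca1a libraries lay far above them. SMAD3 was 2.40-fold higher in MCF10Ca1a than in MCF10A (log2 change 1.27, SE 0.0637, edgeR adjusted p 2.57e-10) and 2.11-fold higher than in MCF10AT1 (log2 change 1.08, SE 0.0634, edgeR adjusted p 1.74e-09). The rise in MCF10AT1 against MCF10A was small (log2 change 0.19, SE 0.063, edgeR adjusted p 0.0197) and was not called in 4 of 9 fits without 1 library, namely MCF10A replicate 2 or 3 or MCF10AT1 replicate 1 or 3. These 9 fits gave 0.14 to 0.26. It was also not called with limma on log2(TPM + 1), at 0.13.

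SMAD2 (ENSG00000175387.16, chr18:47808957-47931146, minus strand), the other receptor-regulated SMAD, differed little in CPM between the lines: 84.8, 85.4 and 89.1 CPM in MCF10A, 82.5, 80.5 and 81.8 CPM in MCF10AT1 and 95.1, 93.1 and 91.4 CPM in MCF10Ca1a. The bands were narrow, close and did not overlap. It was higher in MCF10Ca1a than in MCF10AT1 (log2 change 0.19, SE 0.0462, edgeR adjusted p 0.00176), a call lost without the filter on low counts (0.10, or 0.19 relative to the median shift of the same genes). The difference from MCF10A (log2 change 0.11, SE 0.0461, edgeR adjusted p 0.0434) was kept only without MCF10A replicate 3 among 9 fits that each left out 1 library (0.08 to 0.12), and was lost without the filter on low counts (0.03, or 0.11 relative to that shift). It was called in 8 of the 10 settings other than leaving out a library, and the other exception was the replicate block (0.11, edgeR adjusted p 0.0651). With limma on log2(TPM + 1) both differences were larger and called, at 0.34 against MCF10A and 0.50 against MCF10AT1, or 0.21 and 0.24 relative to the median shift of the same genes on that scale. In MCF10AT1 against MCF10A the change was -0.08 (SE 0.0457, edgeR adjusted p 0.133). On log2(TPM + 1) it was -0.15 and called by limma, but the same genes shifted by a median of -0.12 there, and SMAD2 was at -0.03 relative to that shift. Of the summed TPM of both genes, SMAD3 held 19.4 ± 2.11% (SD, n = 3) in MCF10A, 22.8 ± 0.74% in MCF10AT1 and 32.9 ± 0.289% in MCF10Ca1a, and MCF10Ca1a did not overlap with the others.

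SMAD4 (ENSG00000141646.15, chr18:51028394-51085045, plus strand), the partner shared with the bone morphogenetic protein branch, is often lost in other cancers and was retained in all 9 libraries here. It was measured at 65.0, 63.7 and 62.2 CPM in MCF10A, at 63.7, 64.9 and 62.7 CPM in MCF10AT1 and at 72.2, 73.9 and 73.7 CPM in MCF10Ca1a. The first lines overlapped and MCF10Ca1a lay above them. It was 1.15-fold higher in MCF10Ca1a than in MCF10A (log2 change 0.20, SE 0.0451, edgeR adjusted p 0.000876) and than in MCF10AT1 (log2 change 0.20, SE 0.0451, edgeR adjusted p 0.00107), and both calls were lost without the filter on low counts (0.13 and 0.11). That setting moved the same genes by a median of -0.08 and -0.09, and relative to it SMAD4 was at 0.20 in both. The second was also lost on the length-scaled counts (0.12) and the scaled counts (0.13). With limma on log2(TPM + 1) both were larger and called, at 0.31 against MCF10A and 0.40 against MCF10AT1, or 0.17 and 0.14 relative to the median shift of the same genes on that scale. Between MCF10AT1 and MCF10A the log2 change was 0.00 (SE 0.0446, edgeR adjusted p 0.955).

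SMAD7 (ENSG00000101665.10, chr18:48919853-48952052, minus strand), the inhibitory SMAD that draws ubiquitin ligases to the receptors, was lower at each step in counts, although the TPM summed over its transcripts was not lower at the second. Its level was 8.81, 8.33 and 8.02 CPM in MCF10A, 5.62, 6.08 and 5.90 CPM in MCF10AT1 and 4.61, 4.28 and 4.37 CPM in MCF10Ca1a. The lines were separate and in that order. It was 1.43-fold lower in MCF10AT1 than in MCF10A (log2 change -0.52, SE 0.0773, edgeR adjusted p 5.69e-05) and 1.90-fold lower in MCF10Ca1a than in MCF10A (log2 change -0.92, SE 0.0838, edgeR adjusted p 1.6e-07). The further step from MCF10AT1 to MCF10Ca1a (log2 change -0.41, SE 0.0854, edgeR adjusted p 0.000595) turned to 0.02 and was not called with limma on log2(TPM + 1), where the same genes shifted by a median of 0.26. The coding transcript SMAD7-201 was at 2.06 ± 0.623 TPM (SD, n = 3) in MCF10AT1 and 1.46 ± 0.166 TPM in MCF10Ca1a, without overlap (1.68 to 2.78 against 1.36 to 1.65). SMAD7-202, a retained intron, was at 0.802 ± 0.694 and 1.16 ± 0.291 TPM. The transcript shares of SMAD7 were not called as changed between these lines (adjusted p 0.379 by limma with Simes and Benjamini-Hochberg adjustment).

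SMAD2, SMAD7 and SMAD4 lie together on chromosome 18, at chr18:47808957-51085045. Of 19 other genes tested in this stretch, 9 were called higher and 5 lower in MCF10AT1 against MCF10A, 8 and 6 in MCF10Ca1a against MCF10A, and 6 and 8 in MCF10Ca1a against MCF10AT1. Over all genes tested, 29.8% were called higher and 31.8% lower in the first comparison, 39.0% and 41.9% in the second and 38.0% and 40.3% in the third. The median log2 changes of the 19 genes were 0.19, 0.17 and -0.05. In MCF10Ca1a against MCF10A, SMAD2, SMAD7 and SMAD4 stood at 0.11, -0.92 and 0.20, and the 19 genes ranged from -7.88 to 3.91.

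Ordered by TPM in MCF10A, TGFBR2 was followed by SMAD2 (68.9 ± 0.341 TPM, SD, n = 3), SMAD4 (34.4 ± 2.89 TPM), TGFB1 (19.3 ± 2.49 TPM), SMAD3 (16.7 ± 2.35 TPM) and TGFBR1 (16.2 ± 1.94 TPM), the last 3 overlapping. SMAD7 (4.91 ± 0.55 TPM), TGFBR3 (3.88 ± 0.555 TPM) and TGFB2 (3.84 ± 0.796 TPM) also overlapped, and TGFB3 was lowest at 0.537 ± 0.0762 TPM. In MCF10AT1 the order was TGFBR2, SMAD2 (62.0 ± 1.78 TPM), SMAD4 (32.1 ± 0.922 TPM), SMAD3 (18.3 ± 0.652 TPM), TGFBR1 (16.3 ± 0.346 TPM), TGFB1 (11.2 ± 0.181 TPM), TGFB2 (6.34 ± 0.615 TPM), SMAD7 (3.13 ± 0.0938 TPM), TGFBR3 (0.837 ± 0.056 TPM) and TGFB3 (0.291 ± 0.0554 TPM), and no neighbours overlapped. In MCF10Ca1a, SMAD2 (87.8 ± 2.78 TPM) was followed by SMAD3 (43.0 ± 1.15 TPM) and SMAD4 (42.7 ± 2.22 TPM), which overlapped, and then by TGFB2 (27.9 ± 1.28 TPM) and TGFBR1 (15.1 ± 2.05 TPM). TGFB1 (3.93 ± 0.388 TPM) and SMAD7 (3.19 ± 0.369 TPM) overlapped, TGFB3 was at 0.343 ± 0.089 TPM and TGFBR3 last. TGFB1 thus went from the fourth place to below TGFBR1, and TGFB2 climbed above it.

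The TPM of a gene sums its transcripts as the authors' program divided the reads among them, and some of these are short or untranslated. SMAD4-217, annotated as a target of nonsense-mediated decay, held 49.4 ± 4.64%, 51.3 ± 4.01% and 51.6 ± 1.47% of SMAD4 TPM (SD, n = 3) in MCF10A, MCF10AT1 and MCF10Ca1a. Levels in TPM therefore do not measure the coding transcript alone. Shares of transcripts within a gene were tested for 8 of the 10 genes with limma on log ratios and a Simes p per gene, and TGFB3 and TGFBR3 were too low. In MCF10AT1 against MCF10A this test called 0 of the 8 genes, with 2 at an unadjusted p under 0.05, where 9.07% of 9326 genes tested were called. In MCF10Ca1a against MCF10A it called 2, TGFBR2 and SMAD3, against 55.2% of genes. In MCF10Ca1a against MCF10AT1 it called 1, SMAD3, against 46.8% of genes. 

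The TGFBR2 transcripts TGFBR2-202 and TGFBR2-201 differ inside the coding sequence by exon 2 of the former, 75 bases, all coding and a multiple of 3, which lengthens the extracellular part of the receptor. It is shown because its share was higher in every library of MCF10A than in the derived lines; no letters are in capitals.
TGFBR2 exon 2, chr3:30623199-30623273, plus strand, GRCh38: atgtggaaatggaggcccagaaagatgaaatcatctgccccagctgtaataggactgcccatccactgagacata
The exon was read from the GENCODE 29 transcript. Of the TPM of these 2 transcripts, the one with the exon held 25.3%, 23.0% and 25.7% in MCF10A, 15.7%, 15.9% and 19.4% in MCF10AT1, and then 18.4%, 14.7% and 17.8% in MCF10Ca1a. Every MCF10A library lay above every library of the derived lines, and these overlapped each other. A further transcript of the deposited table that GENCODE 29 does not list held 20.0%, 20.7% and 19.9% of the gene's TPM on average and is not counted here. The adjusted p of TGFBR2 in the share test was 0.102 in MCF10AT1 against MCF10A and 0.0379 in MCF10Ca1a against MCF10A by limma with Simes and Benjamini-Hochberg adjustment. The latter call was kept without MCF10AT1 replicate 3 and lost without each of the other 8 libraries. The log2 ratio of TGFBR2-202 to the rest of the gene changed by -0.66 (SE 0.173, unadjusted limma p 0.00589) in MCF10AT1 and by -0.65 (SE 0.173, unadjusted limma p 0.00648) in MCF10Ca1a, each against MCF10A, so the estimates were about the same size where the gene was called and where it was not. SMAD2 has a coding exon of 90 bases, chr18:47870475-47870564, that is likewise left out of some transcripts, and its share differed between lines by less than the SD within them: 43.7 ± 1.83%, 43.5 ± 0.985% and 43.4 ± 0.872% (SD, n = 3). SMAD2-205, the transcript without it that held most TPM, also has a shorter end, so the split is one between models and not a count of the exon. The transcript with the 84-base TGFB2 exon, chr1:218363334-218363417, held 0%, 0% and 44.4% in the MCF10A libraries, 22.6% to 41.1% in MCF10AT1 and 1.09% to 10.99% in MCF10Ca1a. The MCF10A libraries spread over the range of both other lines, which did not overlap each other. TGFB2 was not called in the share test between those (adjusted p 0.113 by limma with Simes and Benjamini-Hochberg adjustment), and was called with 0.5 TPM added and without MCF10A replicate 3.

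SMAD3 changed in transcript shares as well as in level. Its adjusted p in the share test (limma with Simes and Benjamini-Hochberg adjustment) was 0.00194 in MCF10Ca1a against MCF10A and 0.000415 against MCF10AT1, and the call held in all 9 fits without 1 library. SMAD3-201, the full-length transcript from the first start, held 60.1%, 60.1% and 39.2% of the gene's TPM in MCF10A, 51.3%, 52.6% and 54.5% in MCF10AT1, and then 64.7%, 67.8% and 63.3% in MCF10Ca1a. SMAD3-204, which begins at an inner start, held 9.05%, 10.3% and 8.22%, then 9.89%, 10.04% and 6.34%, then 14.4%, 13.4% and 17.1%. The MCF10Ca1a libraries were highest for both, although SMAD3-201 in MCF10A rested on 1 low library, replicate 3. The log2 ratio of SMAD3-201 to the rest of the gene changed by 0.73 (SE 0.323, unadjusted limma p 0.0571) against MCF10A. Against MCF10AT1 it changed by 0.75 (SE 0.323, unadjusted limma p 0.0515). The transcript with the second largest share, ENST00000679624.1, which GENCODE 29 does not list, held 22.9%, 22.9% and 42.1% in MCF10A, 23.8%, 23.3% and 23.2% in MCF10AT1, and then 15.95%, 14.1% and 15.2% in MCF10Ca1a. Its share was lowest in the MCF10Ca1a libraries, and its log2 ratio to the rest of the gene changed by -1.17 (SE 0.333, unadjusted limma p 0.00871) against MCF10A and by -0.79 (SE 0.333, unadjusted limma p 0.0471) against MCF10AT1. Its mean level in TPM was not lower there: 4.81 ± 1.56 (SD, n = 3) in MCF10A, 4.28 ± 0.19 in MCF10AT1 and 6.50 ± 0.552 in MCF10Ca1a. The level of SMAD3-204 was 1.53 ± 0.241 TPM (SD, n = 3) in MCF10A, 1.597 ± 0.374 TPM in MCF10AT1 and 6.43 ± 0.781 TPM in MCF10Ca1a. Its log2 ratio to the rest of the gene changed by 0.73 (SE 0.229, unadjusted limma p 0.0141) against MCF10A and by 0.83 (SE 0.229, unadjusted limma p 0.00745) against MCF10AT1. SMAD3-213 gave the smallest p (unadjusted limma p 9.77e-05 and 6.29e-06): it held 3.47%, 0.596% and 2.08% in MCF10A and 9.06%, 4.29% and 7.38% in MCF10AT1 and is listed at 0 in all MCF10Ca1a libraries. That transcript rested on at most 47.3 estimated counts in a library. SMAD3 was also called in both comparisons when only transcripts that reach 10% of a gene were tested, which leaves SMAD3-213 out.

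RefSeq lists 4 inner starts of SMAD3. The 250 bases before the one nearest to SMAD3-204 are shown because that transcript held a higher share in every MCF10Ca1a library; capitals mark the single match to TGAGTCA, the AP-1 site (RefSeq, GRCh38.p14).
SMAD3 inner start near SMAD3-204, chr15:67125492-67125741, plus strand: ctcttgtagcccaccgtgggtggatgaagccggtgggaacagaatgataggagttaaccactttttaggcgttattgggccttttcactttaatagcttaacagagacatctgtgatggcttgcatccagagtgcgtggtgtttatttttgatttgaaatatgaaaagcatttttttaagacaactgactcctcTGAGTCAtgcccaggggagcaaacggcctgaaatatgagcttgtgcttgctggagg
TGAGTCA occurs on either strand in 4.2% of the 35116 RefSeq windows, and it stands 56 bases before this start. The window holds none of the letters marked in the ligand windows. The window before the first SMAD3 start held no TGAGTCA, 4 matches to GGGCGG and 1 to CACGTG, and its GC content was 80.8% against 44.8% at this inner start. The start of SMAD3-213 is another of the inner starts, and its window holds none of these letters.

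**Figure D4:**
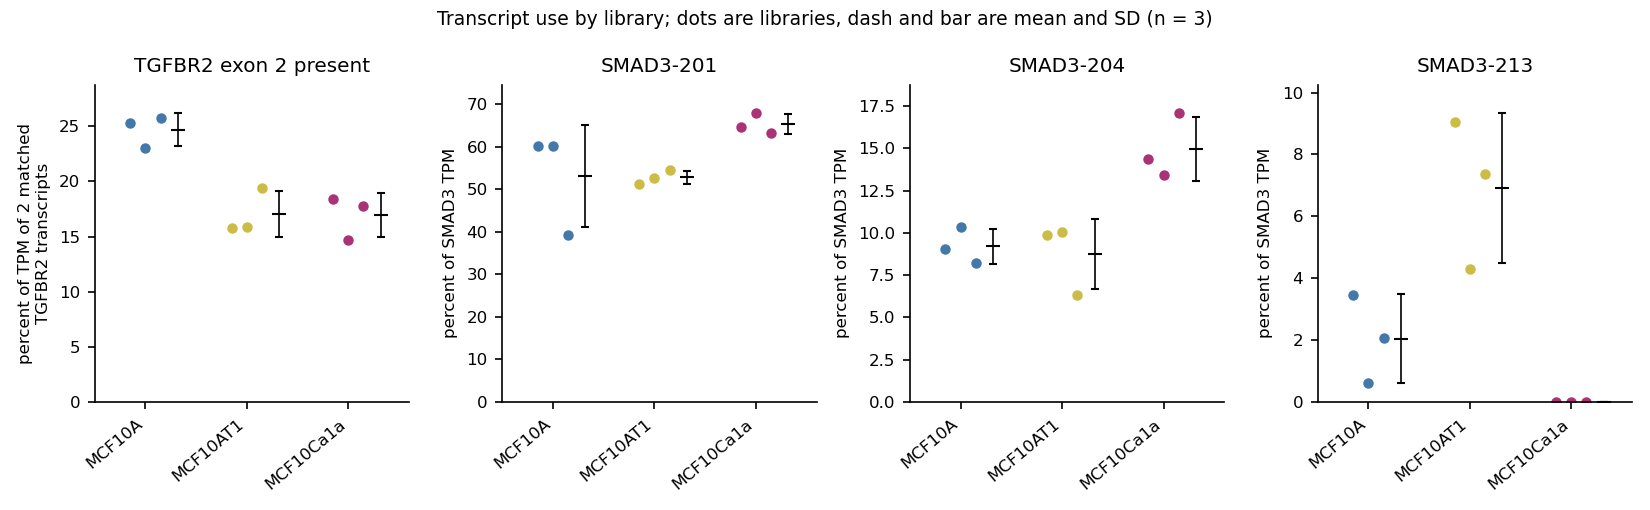
Percent of TPM held by the TGFBR2 transcript with exon 2, of the 2 that GENCODE 29 lists (left), and by 3 SMAD3 transcripts, of all SMAD3 TPM (other panels), in the 9 libraries; dots are libraries, the dash and bar are the mean and SD of 3 libraries. The exon is used most in MCF10A, SMAD3-204 most in MCF10Ca1a, and SMAD3-213 is listed at 0 there.

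The genes listed under storage and activation of latent TGF-beta moved in both directions. Of 11 genes listed, 9 were tested, and 7 were called in MCF10AT1 against MCF10A (4 higher, 3 lower), 9 in MCF10Ca1a against MCF10A (3 higher, 6 lower) and 9 in MCF10Ca1a against MCF10AT1 (2 higher, 7 lower). These are 77.8%, 100% and 100% of those tested, against 61.6%, 80.9% and 78.4% of all genes. Their median log2 changes were -0.01, -0.38 and -0.53, against 0.00, -0.05 and -0.04 for all genes tested. LTBP1, which anchors latent TGF-beta in the matrix, fell furthest, from 270 ± 44.3 CPM (SD, n = 3) in MCF10A to 155 ± 5.29 CPM in MCF10AT1 and 12.2 ± 0.367 CPM in MCF10Ca1a (log2 change -4.47 against MCF10A, edgeR adjusted p 1.96e-13). LTBP2 (-1.31), listed by its gene family and not for a known hold on latent TGF-beta, also fell in MCF10Ca1a against MCF10A. So did ITGB6, the integrin subunit that releases latent TGFB1 and TGFB3 (-1.27), while LTBP3 rose from 28.1 ± 2.61 CPM to 71.9 ± 2.80 CPM (1.35). THBS1, a matrix protein that activates latent TGF-beta, was highest in the middle line, at 433 ± 59.5, 1629 ± 18.1 and 726 ± 28.5 CPM, and so was ITGB8, another activating integrin subunit, at 35.6 ± 1.73, 109 ± 5.19 and 52.4 ± 3.27 CPM. ITGAV, the integrin partner of ITGB6 and ITGB8, fell most in MCF10AT1 against MCF10A (log2 change -1.08). LRRC32 had at most 2 counts in a library, and NRROS had at most 15 and was at 0 throughout MCF10AT1.

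Regulators of SMADs and receptors were all measurable. Of 17 genes, 12 were called in MCF10AT1 against MCF10A (8 higher, 4 lower), 13 in MCF10Ca1a against MCF10A (9 higher, 4 lower) and 10 in MCF10Ca1a against MCF10AT1 (7 higher, 3 lower). These are 70.6%, 76.5% and 58.8%, against 61.6%, 80.9% and 78.4% of all genes, and the median log2 changes were 0.11, 0.32 and 0.06, against 0.00, -0.05 and -0.04. The ubiquitin ligases NEDD4L, which marks activated SMAD2 and SMAD3 for degradation, and SMURF1, which acts on receptors through SMAD7, rose in MCF10Ca1a against MCF10A (log2 changes 1.48 and 1.27). NEDD4L went from 75.6 ± 4.98 CPM (SD, n = 3) through 124 ± 3.58 to 210 ± 6.47 CPM. SKIL, a SMAD co-repressor that is also a target of the pathway, rose by 0.96, and SKI, its relative, was lower by a small amount (-0.31). FKBP1A (-0.30), which binds the type I receptor, and USP15 (-0.21), a deubiquitinase, were likewise slightly lower. DAB2, an adaptor of receptors and SMADs, rose most in MCF10AT1 against MCF10A (0.99), and BAMBI, a decoy receptor, rose there by 0.81 and fell by 0.89 on the log2 scale from MCF10AT1 to MCF10Ca1a.

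The activin branch, which shares SMAD2, SMAD3 and SMAD4 with TGF-beta, was marked by its ligand gene. INHBA, which encodes the subunit of activin A, had 5.96 ± 0.424 CPM (SD, n = 3) in MCF10A, 216 ± 2.78 CPM in MCF10AT1 and 709 ± 20.3 CPM in MCF10Ca1a. Its log2 changes were 5.18 and 6.90 against MCF10A and 1.71 between the derived lines (edgeR adjusted p 3.4e-15, 5.36e-16 and 4.74e-12). On the TPM scale INHBA stood at 1.75, 55.6 and 218 TPM, below TGFB1 in MCF10A and above all 3 TGF-beta ligands in the other lines. FST, the follistatin gene whose product binds activin, rose from 6.14 ± 0.529 to 40.6 ± 0.824 CPM and stood at 24.3 ± 0.531 CPM in MCF10Ca1a, while FSTL3, a related binding protein, was lower in both derived lines (-0.64 and -0.57). ACVR2B, a type II activin receptor, was higher in MCF10Ca1a (1.41 against MCF10A), and GDF11 (-0.74), a related ligand, and ENG (-0.68), a co-receptor akin to TGFBR3, were lower. Of 10 genes listed and 9 tested, 4 were called in MCF10AT1 against MCF10A (2 higher, 2 lower), 8 in MCF10Ca1a against MCF10A (4 higher, 4 lower) and 5 in MCF10Ca1a against MCF10AT1 (2 higher, 3 lower). These are 44.4%, 88.9% and 55.6% of those tested, against 61.6%, 80.9% and 78.4% of all genes, and the median log2 changes were 0.10, -0.09 and -0.10, against 0.00, -0.05 and -0.04. The count of 8 became 5 with limma on TPM. INHBB had at most 2 counts in a library.

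Known target genes of TGF-beta, many of which also answer to other signals, went both ways. Of 20 listed, 19 were tested, and 15 were called in MCF10AT1 against MCF10A (9 higher, 6 lower), 19 in MCF10Ca1a against MCF10A (6 higher, 13 lower) and 17 in MCF10Ca1a against MCF10AT1 (7 higher, 10 lower). These are 78.9%, 100% and 89.5% of those tested, against 61.6%, 80.9% and 78.4% of all genes. Their median log2 changes were 0.03, -0.84 and -1.02, against 0.00, -0.05 and -0.04. ANGPTL4, a secreted protein induced through SMADs, fell from 302 ± 33.4 CPM (SD, n = 3) in MCF10A to 110 ± 5.65 CPM in MCF10AT1 and 0.143 ± 0.0475 CPM in MCF10Ca1a, where it had 4 to 7 counts. TAGLN, an actin-binding protein, was already low in MCF10AT1, at 1.51 ± 0.038 CPM against 87.6 ± 2.16 CPM in MCF10A (log2 change -5.85), and MMP2, a matrix protease, stood at 9.51 ± 1.45, 8.18 ± 0.198 and 0.477 ± 0.131 CPM. PDGFB, a growth factor gene, rose from 0.142 ± 0.0524 CPM in MCF10A to 4.85 ± 0.0356 and 5.62 ± 0.643 CPM. NEDD9, a scaffold protein, rose at both steps (1.62 and 1.83), and IL11, a cytokine gene, rose from MCF10AT1 to MCF10Ca1a by 2.92. CDKN2B, the cell cycle inhibitor, had 0 counts in all 9 libraries, under the limit of 3 counts in each. COL1A1, one of the 20, is also on the fibroblast marker list.

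**Figure D5:**
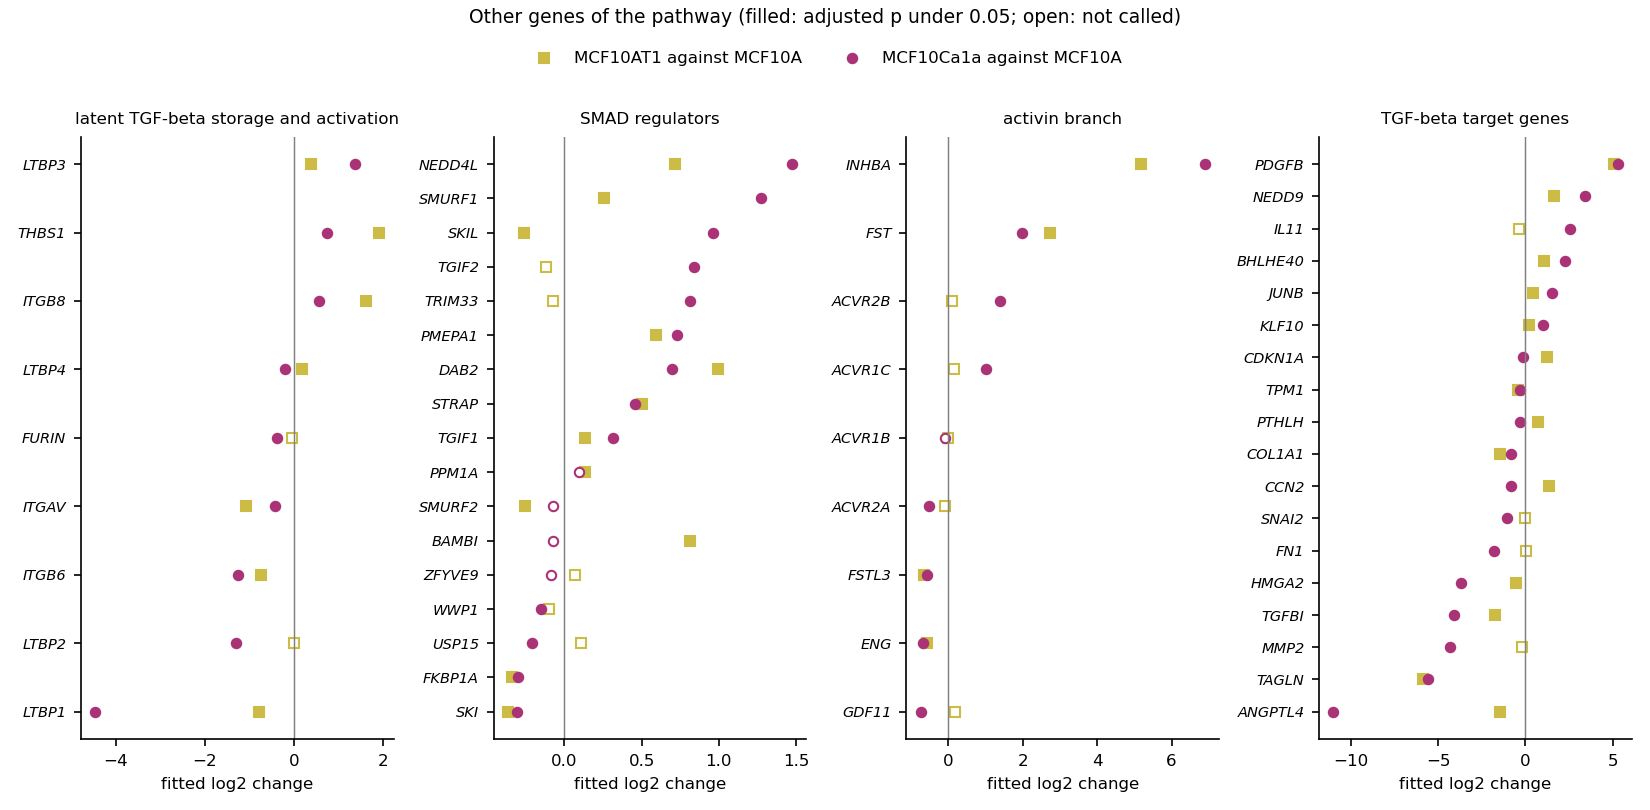
Fitted log2 change of the tested genes of 4 pathway lists, ordered by the change in MCF10Ca1a against MCF10A (circles), with the change in MCF10AT1 against MCF10A beside it (squares); each panel has its own horizontal axis, and 1 target gene is not shown. Symbols are filled where the adjusted p by edgeR was under 0.05. ANGPTL4, INHBA, TAGLN and PDGFB lie farthest from 0.

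The genes whose pattern over the 9 libraries lay nearest to those of the 3 members with the widest range of line means were found by the root mean square distance of centred log2 CPM. For TGFBR3 (range 8.37) these were ALDH1L2 (distance 0.43) and CLCA2 (0.44). ALDH1L2 had 6187 to 6781 counts in MCF10A, 1160 to 1213 in MCF10AT1 and 3 to 5 in MCF10Ca1a, and CLCA2 12527 to 14070, 2013 to 2515 and 22 to 26. For TGFB2 (range 2.78) they were FMN1 (0.05) and AKR1C1 (0.08), and for TGFB1 (range 2.54) PLSCR4 (0.08) and KIF4A (0.08). These distances describe 9 libraries in 3 lines, in which any gene that falls or rises by the same steps lies near.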

How the data were processed

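Polyadenylated RNA of 3 lines, 3 libraries each, was sequenced from stranded libraries, per the labels' protocols. Salmon and the hg38 build are named, per the submitters' processing notes, and the versions and annotation are not given in the sources used here. The authors deposited 6 tables: estimated counts per gene, gene counts named as length-scaled and scaled, gene TPM (a unit corrected for transcript length and depth), and transcript estimated counts and TPM. TPM was used as deposited.

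The 10 genes and the gene lists were chosen with earlier results of these data known, so no list is independent evidence of its direction. Gene estimated counts were rounded, filtered with filterByExpr (minimum count 10, total 15; 17910 of 62666 genes) and tested with edgeR 4.0.16 (R 4.3.3), its quasi-likelihood test with TMM scaling, all 9 libraries in 1 fit, and Benjamini-Hochberg adjustment at 0.05. Standard errors came from the log2 change and its F statistic. Transcript shares were tested with limma 3.58.1 on log2 ratios with 0.1 TPM added, for genes with at least 1 TPM and transcripts with at least 5% in 1 line. The edgeR, DESeq2, limma and share tests were also run on simulated data, with the same spread set for every gene and line. The real replicates differed in spread, so that run does not tell how many calls here are false. The intervals and the floor of 3 counts take in counting error alone, because no molecular identifiers were read and PCR copies cannot be told from molecules. Replicate libraries differed by more than counting noise (chi-square per degree of freedom 2.39 to 72.4).

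Named genes, beside the 10: of each pathway list the 3 highest and 3 lowest log2 changes among called genes in MCF10Ca1a against MCF10A and the 1 highest and 1 lowest in each other comparison; the 2 nearest genes to the 3 members of widest range; HRAS and markers. Positions come from GENCODE 29 on GRCh38 through unversioned identifiers (58227 matched), and 89 of 108 member transcripts matched. Promoter sequences come from RefSeq (GRCh38.p14), on the 250 bases before each start; all 10 genes had an entry. Protein sequences were not used here. Of the target genes, 1 is counted in its list but not reported here by itself. Alternatives were DESeq2 1.42.0 (size factors, Wald test), no filter, the other count tables, the replicate number as a block, only the lines compared, limma on log2(TPM + 1) and log2(TPM + 0.1), other share settings (0.5 TPM added, 10% minimum), and each library left out in turn.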

Additional observations from a re-analysis of the deposited data

How the results depend on the processing

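The 30 log2 changes of the 10 genes were each recomputed under 19 alternatives. Of these 570 values, 498 kept direction and side of the threshold, 45 lost the call, 4 gained it and 23 changed sign (SMAD4, TGFBR2, TGFB3 and SMAD7). SMAD4 in MCF10AT1 against MCF10A was -0.00426 with DESeq2 size factors, -0.00414 with the DESeq2 Wald test, and with limma -0.0924 on log2(TPM + 1), with or without a filter, and -0.0948 on log2(TPM + 0.1). TGFBR2 in that comparison was -0.0867 and -0.0873 in the same limma fits. TGFB3 in MCF10Ca1a against MCF10AT1 was 0.0446 with DESeq2 size factors, 0.0449 with the Wald test, 0.0133 with only the lines compared, 0.0559 on log2(TPM + 1) with or without a filter and 0.17 on log2(TPM + 0.1). SMAD7 in that comparison was 0.0182 on log2(TPM + 1), with or without a filter, and 0.0221 on log2(TPM + 0.1). Leaving out each library gave ranges of -0.0137 to 0.0196 for SMAD4, -0.0205 to 0.117 for TGFBR2 and -0.21 to 0.19 for TGFB3. The sign changes other than those from leaving out a library came with a shift of all genes: relative to the median shift of the same genes, SMAD4 was 0.0035 with DESeq2 size factors and 0.0298 on log2(TPM + 1), TGFBR2 0.0355 on log2(TPM + 1), TGFB3 -0.0022 with DESeq2 size factors and -0.202 on log2(TPM + 1), and SMAD7 -0.24 on log2(TPM + 1), each with the sign of the reported value.

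Of 21 counts of called genes, 18 stayed within 1.5 times their value. The activin branch in MCF10Ca1a against MCF10A went from 8 to 5 in each of the limma fits on log2(TPM + 1), on log2(TPM + 0.1) and without a filter. Genes with changed transcript shares in MCF10Ca1a against MCF10A went from 2 to 5 with 0.5 TPM added and ranged from 1 to 3 without 1 library (1 without MCF10A replicate 1 or 2 or MCF10AT1 replicate 1), and in MCF10Ca1a against MCF10AT1 from 1 to 2 with 0.5 TPM added and from 1 to 2 without 1 library (2 without MCF10A replicate 3 or MCF10Ca1a replicate 2 or 3). With the replicate number as a block, the first of these was 1, the calls of the 10 genes were 7, 9 and 9, and SMAD2 in MCF10Ca1a against MCF10A (0.11) was not called. Same-numbered libraries did not deviate together (r from -0.06 to 0.05 over 9 pairs of libraries), so the numbers give no pairing.

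MCF10Ca1a was sequenced least deeply, which limits TGFB3 (23 to 39 counts there) and TGFBR3 most. Limma on log2(TPM + 1) shifted the share of higher calls among all genes from 48.4% to 36% in MCF10AT1 against MCF10A. In MCF10Ca1a against MCF10AT1 it went from 48.5% to 61.7%. That fit also changed the test and filter and used no TMM scaling, so the unit alone was not tested. On the authors' scaled counts, tested by edgeR with TMM, the shares were 49.2% and 48.5%. Fitted changes of TGFBR3 in MCF10Ca1a depend on the pseudocount.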
